A study of Homo sapiens with 8 samples.

Results

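Neurotrophins are secreted growth factors of the nervous system that act through the Trk family of receptor tyrosine kinases and through the p75 neurotrophin receptor (p75NTR). The 6 genes of this system followed here were chosen by name: the Trk receptors NTRK2 (TrkB) and NTRK3 (TrkC), the p75NTR gene NGFR, the sorting receptor SORT1 (sortilin), and the ligands BDNF and NTF3 (neurotrophin-3). All 6 were found by symbol among the 47591 genes of the table. The samples were 8 libraries of polyadenylated RNA from SH-SY5Y, a human neuroblastoma cell line. Of these, 3 came from G2, in which PRPF40B was silenced with CRISPR/Cas9 and a specific guide, 3 from the scramble control (SCR), which received the same machinery with a non-targeting guide, and 2 from unmodified WT cells. PRPF40B encodes a splicing factor. The study's methods describe colonies raised from limiting dilution after puromycin selection, and G2 and SCR were kept in puromycin, so clone and selection cannot be told apart from the edit in any comparison with WT, and clone cannot be told apart from it in G2/SCR.

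TrkB binds BDNF and neurotrophin-4 (NTF4), and TrkC binds neurotrophin-3. A bound Trk receptor signals through adaptors to the MAPK/ERK, PI3K/AKT and phospholipase C pathways. p75NTR binds every mature neurotrophin and, together with sortilin, the uncleaved proneurotrophins, and it can also act as a co-receptor of the Trk receptors. TrkB is made in a full-length form with a kinase domain and in a truncated form, T1, which lacks that domain. Sympathetic neurons and the neuroblastomas that arise from their precursors are known for their responses to these factors.

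The values were normalized counts, that is the count assigned to a gene in a library divided by a size factor of that library. They are not scaled to gene length and are compared between lines for 1 gene at a time, except where a level per kb is named. Depth, taken as recovered counts divided by 3, ran from 19934798 to 27026916 fragments per library. The targeted gene was lower in G2, as labelled: PRPF40B had 866 ± 44.5 normalized counts for G2, 1676 ± 8.79 for SCR and 1820 ± 215 for WT (mean ± SD, n = 3, 3 and 2).

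The 2 forms of TrkB part at the exon that follows the transmembrane segment, and the sequences at that fork are shown because the table cannot separate what lies on either side of it. NTRK2 (GSHG0043466) lies on the plus strand of chromosome 9 of hg38, at 84668522 to 85027062. In GENCODE 44, an exon of 100 bases (84751986 to 84752085) is spliced either to the terminal exon of T1 (84810542 to 84815706, 5165 bases, found in 17 of 58 annotated transcripts) or, in the reference full-length transcript, to a coding exon of 48 bases (84861040 to 84861087). The lines below run 5′ to 3′ on the plus strand, with the last 20 bases of the intron in lower case. Capitals mark the exon, up to the stop codon of T1 and to the end of the full-length exon.
T1 exon, chr9:84810522-84810579: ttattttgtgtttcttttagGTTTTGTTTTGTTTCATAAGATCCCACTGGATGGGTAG
Full-length exon, chr9:84861020-84861087: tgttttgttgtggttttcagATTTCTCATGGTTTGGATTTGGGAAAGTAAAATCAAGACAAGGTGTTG
The T1 exon adds 35 coding bases before its stop codon. Its 5165 bases make up 15.6% of the 33162 bases covered by any annotated NTRK2 exon. Each gene has a single value in a library, so the values given for NTRK2 are the sum of both forms, and a change in their ratio was not measured.

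NTRK2 was low in all 3 lines. Its normalized counts were 28.2, 53.7 and 37.6 in the G2 libraries, 39.8, 50.7 and 61.2 in SCR, and 21.1 and 35.7 in WT. The ranges of G2 and of both control lines overlapped. For G2/SCR the log2 fold change was -0.36 (95% interval -1.08 to 0.35, limma, adjusted p = 0.38) and for G2/WT it was 0.47 (-0.33 to 1.27, limma, adjusted p = 0.30), so a difference in either direction up to these limits was not resolved. SCR was above WT by 0.83 on the log2 scale (0.04 to 1.63, limma, adjusted p = 0.098), which passed the study's threshold for differential expression (DE), a fold change of at least 1.5 with an unadjusted p of at most 0.05, but not the adjusted one. Without WT replicate 1 this difference was 0.47 and missed that threshold, as it did without SCR replicate 2 (0.82), SCR replicate 3 (0.69) or G2 replicate 3 (0.83). About 38 fragments were counted for NTRK2 over the 3 G2 libraries together, 58 over SCR and 18 over WT. These counts limit what the comparison could show.

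NTRK3 rose in G2. Its gene (GSHG0015463) lies on the minus strand of chromosome 15, at 87859751 to 88256739 in hg38. The G2 libraries had 98.8, 86.5 and 76.3 normalized counts, the SCR libraries 14.3, 11.3 and 7.56, and the WT libraries 0 and 7.94. All 3 G2 libraries were above all 5 control libraries. The log2 fold change in G2/SCR was 2.91 ± 0.67 (SE), a 7.49-fold rise with a 95% interval of 2.7 to 20.8 (limma, adjusted p = 0.0035). WT was at the floor of detection, defined as no library above 9 recovered counts, which corresponds to 3 fragments per library. Against that floor of 10.1 normalized counts, G2 was at least 8.67-fold higher than WT, a bound that was not itself tested. The fit, which takes the WT values as listed, gave a log2 fold change of 4.87 in G2/WT (limma, adjusted p = 0.00018). SCR was DE against WT at the unadjusted threshold (limma, adjusted p = 0.062), but its mean was only at least 1.10-fold above the WT floor, and the call was lost without WT replicate 1 or SCR replicate 1. About 85 fragments lay behind the 3 G2 libraries, 12 behind SCR and 3 behind WT.

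The window before the start of NTRK3 is shown as the promoter of the member with the largest log2 fold change in G2/SCR, with its 2 GC boxes in capitals. It comes from RefSeq (GRCh38.p14) and covers the 250 bases before the annotated start, which is also the start of the gene in the table. It runs 5′ to 3′ on the minus strand.
NTRK3, chr15:88256740-88256989: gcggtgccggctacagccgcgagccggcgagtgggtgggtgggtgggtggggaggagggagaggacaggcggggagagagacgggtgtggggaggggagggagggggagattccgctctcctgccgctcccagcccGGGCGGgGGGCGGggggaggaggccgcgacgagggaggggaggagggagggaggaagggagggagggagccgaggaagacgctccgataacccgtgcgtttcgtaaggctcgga
Its GC content was 73.2%, against a median of 58.0% over 35116 promoter windows of the same length. The letters GGGCGG were searched on both strands and were present in 42.6% of all windows. The core of a cAMP response element was searched as ACGTCA (7.10% of windows), the AP-1 element as TGANTCA (6.57%) and the TATA box by the letters TATAAA (10.7%), on both strands. None of these 3 was found in the NTRK3 window, and its GC boxes overlap neither each other nor another motif.

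NGFR also rose in G2. The gene (GSHG0018330) lies on the plus strand of chromosome 17, at 49495293 to 49515008. Its normalized counts were 78.1, 121.5 and 90.3 in G2, 20.4, 5.63 and 34.8 in SCR, and 11.2 and 21.8 in WT. The lowest G2 library was above the highest control library, while the SCR libraries spread over the whole range of WT and beyond it. Against SCR the log2 fold change was 2.48 ± 0.53 (SE), a 5.58-fold rise with a 95% interval of 2.49 to 12.5 (limma, adjusted p = 0.0021). Against WT it was 2.53 ± 0.60 (SE), or 5.76-fold with an interval of 2.33 to 14.2 (limma, adjusted p = 0.0036). SCR and WT did not differ beyond their spread, with a log2 difference of 0.04 (-1.26 to 1.35). Both G2 comparisons share the G2 libraries and are not independent of each other. The annotated antisense gene NGFR-AS1 overlaps NGFR, and without a stated strand setting of the counting their reads cannot be told apart. NTRK3 has an antisense neighbour too, NTRK3-AS1, which was listed at 0 in every library.

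SORT1 was the most abundant of the 6 genes, also per length. It lies on the minus strand of chromosome 1 (GSHG0002735, 109309568 to 109397941). The G2 libraries had 1838, 1851 and 1843 normalized counts, the SCR libraries 1450, 1555 and 1413, and the WT libraries 1548 and 1620. All G2 libraries were above all controls, and their SD was 6.49, against 73.9 in SCR. The G2 libraries together held about 1786 SORT1 fragments, with a counting interval of 1704 to 1871 (exact Poisson, 95%). Relative to the level, that interval is wider than the SD, so the SD does not show the precision of the G2 values. The rise was small: 1.25-fold in G2/SCR (95% interval 1.14 to 1.38, limma, adjusted p = 0.0011) and 1.16-fold in G2/WT (1.05 to 1.3, limma, adjusted p = 0.021). Both were under the 1.5-fold threshold, so SORT1 was not DE.

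BDNF, the TrkB ligand, was lower in G2 than in SCR and did not separate from WT. The gene (GSHG0007204) lies on the minus strand of chromosome 11, at 27654893 to 27722058. Its normalized counts were 117, 164 and 76.3 in G2, 180, 281 and 173 in SCR, and 86.9 and 87.4 in WT. Every SCR library was above every G2 and WT library, and the G2 libraries lay on both sides of WT. BDNF fell by 0.85 ± 0.26 (SE) on the log2 scale in G2/SCR (interval -1.43 to -0.28, limma, adjusted p = 0.017). In G2/WT the log2 fold change was 0.38 (-0.26 to 1.02, limma, adjusted p = 0.30). SCR was 2.35-fold above WT (interval 1.51 to 3.66, limma, adjusted p = 0.0066), so SCR was the line that stood apart. The G2 values rested on replicate 3: without it, the log2 fold change was -0.57 against SCR, under the fold threshold and no longer DE, and 0.66 against WT, now DE.

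BDNF has several promoters, each with its own leading exon, and the value per gene sums them. RefSeq gave 5 BDNF windows, and the 1 that holds an ACGTCA is shown, with these letters in capitals, because such an element is where activity-regulated transcription of this gene has been studied.
BDNF, minus strand, chr11:27701622-27701871: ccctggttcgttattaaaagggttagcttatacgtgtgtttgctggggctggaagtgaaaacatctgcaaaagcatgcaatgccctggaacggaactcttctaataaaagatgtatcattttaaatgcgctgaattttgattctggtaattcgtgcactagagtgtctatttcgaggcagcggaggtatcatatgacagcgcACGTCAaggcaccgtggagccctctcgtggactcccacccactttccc
The other 4 BDNF windows held no ACGTCA. The antisense gene BDNF-AS overlaps BDNF, and whether the counting used strand is not given in the sources used here, although the library kit keeps it. BDNF-AS had 50.5 ± 5.36 normalized counts for G2, 74.0 ± 15.7 for SCR and 41.5 ± 1.07 for WT (mean ± SD, n = 3, 3 and 2). Its order of lines was the same as that of BDNF, with SCR above WT (log2 fold change 0.80, limma, adjusted p = 0.033), so reads shared by the overlapping genes cannot be told apart from a parallel difference.

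NTF3, the TrkC ligand, was not detectable at this depth. It was listed at 0 in 7 libraries and at 2.27 normalized counts in SCR replicate 3, the equivalent of 1 fragment. Over the 3 G2 libraries, 0 fragments allowed an upper limit of 3.69 fragments in all (exact Poisson, 95%). It did not reach the mean of 10 needed for a test, so 5 of the 6 genes were tested. The gene (GSHG0008699) lies on the plus strand of chromosome 12, at 5432108 to 5495299.

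**Figure D1:**
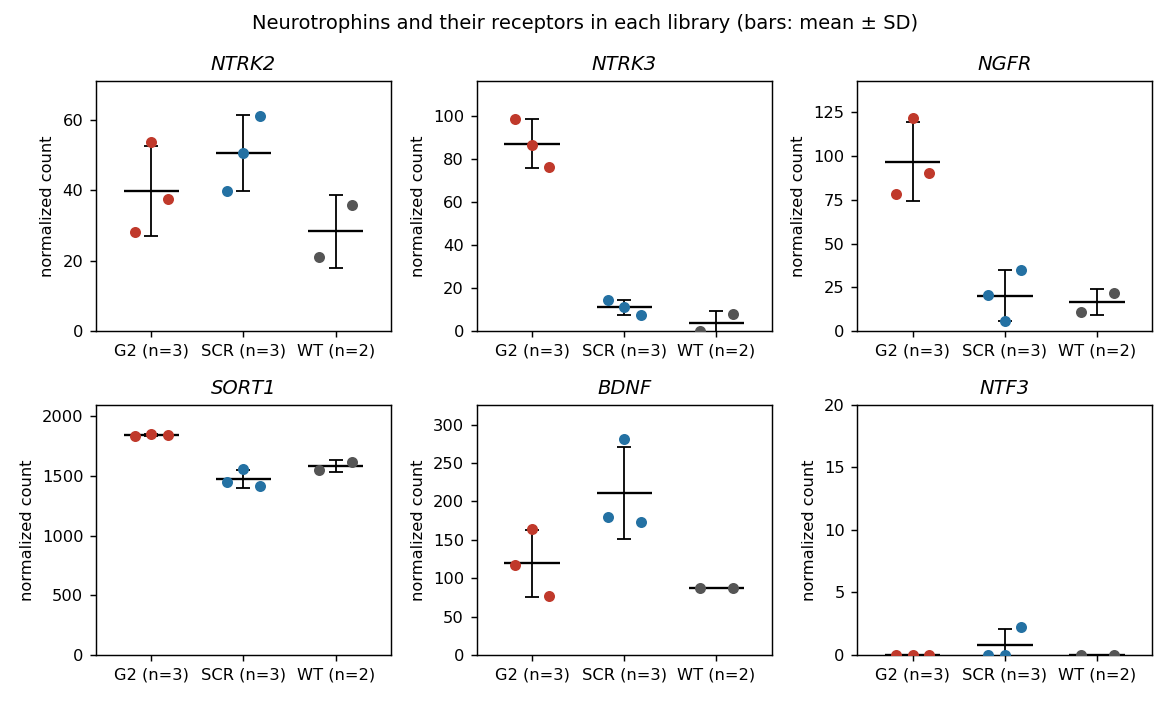
Normalized counts of the 6 genes (vertical axes, from 0) in each library of G2, SCR and WT; points are libraries, horizontal bars means and error bars SD, cut off at 0. The G2 points of NTRK3 (76.3 to 98.8) and NGFR (78.1 to 121.5) lie above all controls, those of NTRK2 and BDNF overlap them, and NTF3 is at or near 0.

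Of the 5 tested genes, 3 were DE in G2/SCR (NTRK3 and NGFR higher, BDNF lower), 2 in G2/WT (NTRK3 and NGFR higher) and 3 in SCR/WT (NTRK2, NTRK3 and BDNF higher). Over all 18947 genes tested, 26.9% were DE in G2/SCR, 29.9% in G2/WT and 16.3% in SCR/WT. With the same sign against both controls there were 2 of 5, against 17.7% of all genes. G2 lay wholly outside the range of the controls for 3 of 5 (NTRK3, NGFR and SORT1), against 42.5% of all genes. With only 5 genes tested, nothing is read from these counts about the family as a whole. At an adjusted p of at most 0.05 the members DE were 3, 2 and 1, the last being BDNF. The median log2 fold change of the 5 was 0.33, 0.47 and 0.83, against -0.01, 0.00 and 0.01 for all genes; with NTRK3 at its bound against WT the SCR/WT median was 0.13.

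**Figure D2:**
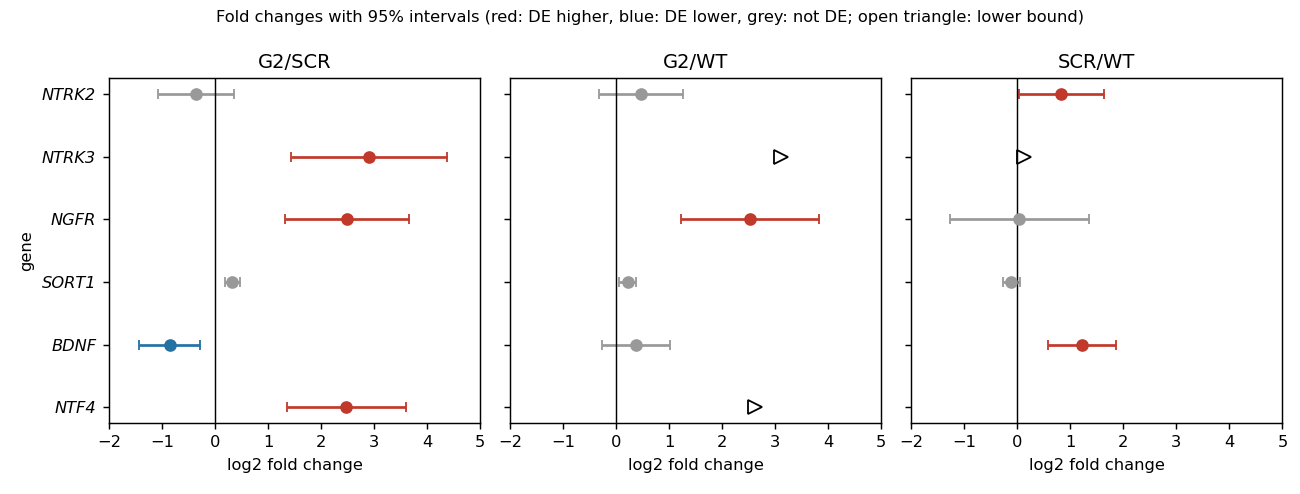
Log2 fold changes (horizontal axes) of NTRK2, NTRK3, NGFR, SORT1, BDNF and NTF4 in G2/SCR, G2/WT and SCR/WT; points are limma estimates with 95% intervals, red for DE higher, blue for DE lower and grey for not DE, and open triangles are lower bounds against WT at the floor. NTRK3 and NGFR lie to the right of 0 in both G2 comparisons, and BDNF lies to the left in G2/SCR (-0.85) and to the right in SCR/WT (1.23). NTF4 in SCR/WT is not drawn because the SCR mean was no higher than the WT floor.

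Other receptors and co-receptors were read from a list of 12, of which 11 were in the table and 10 were tested. The list is wider than the neurotrophin receptors, since it takes in relatives, partners and regulators of receptors. Its counts are therefore not counts of neurotrophin receptors alone. Against SCR 6 of the 10 were DE in G2, all higher, and against WT 7 were higher and 1 lower, against 15.1% higher and 11.8% lower in G2/SCR and 17.7% and 12.2% in G2/WT over all genes. In SCR/WT 3 were higher and 1 lower (10.7% and 5.63% of all genes).

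Among the relatives of sortilin, SORCS1 had 11021 ± 135 normalized counts for G2 against 5344 ± 61.2 for SCR (mean ± SD, n = 3 each), a 2.06-fold rise (limma, adjusted p = 4.6e-07). SORL1, which sorts cargo between endosomes and the Golgi, rose 1.81-fold in G2/SCR (limma, adjusted p = 0.00035) and 2.98-fold in G2/WT (limma, adjusted p = 6e-06). SORL1 was also 1.64-fold higher in SCR than in WT (limma, adjusted p = 0.0046). SORCS2 was DE only in G2/WT among the 3 comparisons (1.75-fold, limma, adjusted p = 0.037), and against SCR its log2 difference was 0.28 (-0.30 to 0.86); the difference between these comparisons was not tested. SORCS3 was below the mean needed for a test, at 0 to 25.8 normalized counts over the 8 libraries.

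TNFRSF21 (death receptor 6) belongs to the same receptor superfamily as NGFR. It had 561 ± 30.1 normalized counts for G2, 274 ± 8.15 for SCR and 161 ± 13.6 for WT (mean ± SD, n = 3, 3 and 2), and it was DE in all 3 comparisons. TNFRSF19, another member of that superfamily, was lower in G2 and in SCR than in WT, by 0.73 and 0.91 on the log2 scale (limma, adjusted p = 0.00067 and 0.00031). LRIG1, a membrane protein that restrains receptor tyrosine kinases, rose 1.64-fold in G2/SCR (limma, adjusted p = 0.0032) and 2.64-fold in G2/WT (limma, adjusted p = 4.7e-05). LRIG1 was also 1.61-fold higher in SCR than in WT (limma, adjusted p = 0.012). GFRA1, a receptor of the GDNF family, had 43.3, 37.2 and 36.5 normalized counts in G2 and 10.2, 10.3 and 2.27 in SCR (5.35-fold, limma, adjusted p = 0.017). WT was at the floor for GFRA1, and G2 was at least 3.88-fold higher. The SCR libraries had only 10, 11 and 3 recovered counts for GFRA1, so the fold against SCR rests on few fragments. The partners of p75NTR in the Nogo receptor complex were not DE: LINGO1 differed by -0.31 on the log2 scale against SCR (-0.61 to -0.02, limma, adjusted p = 0.074) and RTN4R by 0.31 (0.01 to 0.60, limma, adjusted p = 0.078).

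NTF4, a TrkB ligand, rose in G2. It had 70.6, 32.8 and 81.7 normalized counts in G2, 6.12, 14.1 and 9.82 in SCR, and 2.48 and 3.97 in WT. It was 5.56-fold higher in G2 than in SCR (95% interval 2.57 to 12.1, limma, adjusted p = 0.0016) and stood at least 6.14-fold higher than WT, which was at the floor. The SCR libraries had only 6, 15 and 13 recovered counts for NTF4, so the fold against SCR rests on few fragments.

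NTF4 belongs to a list of 12 genes for ligands, their processing and their release, of which 8 were tested. In G2/SCR 5 were higher and 1 lower, in G2/WT 4 were higher and 1 lower, and in SCR/WT 1 was higher and 1 lower. Over all genes the shares higher and lower were 15.1% and 11.8% in G2/SCR, 17.7% and 12.2% for G2/WT and 10.7% and 5.63% in SCR/WT. PLAT, the tissue plasminogen activator that generates the plasmin which cleaves proBDNF, was 8.94-fold higher in G2 than in SCR (95% interval 8.04 to 9.93, limma, adjusted p = 1.6e-11) and 11.6-fold higher than in WT. FURIN, an intracellular convertase of proneurotrophins, was 2.17-fold higher than in SCR (limma, adjusted p = 5.4e-08). PCSK6, a convertase of the same family, fell by 0.99 on the log2 scale in G2/SCR (limma, adjusted p = 0.00021) and by 1.46 in G2/WT (limma, adjusted p = 2.1e-05). The plasminogen gene PLG and SCG2 were listed at 0 in every library.

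Per length, SORT1 was the highest of the members in each line. Its counts per kb of annotated exon were 202 in G2, 161 in SCR and 174 in WT, all as means over libraries. In G2, NTF4 (26.3), NGFR (23.3) and BDNF (15.4) came next, with ranges over the libraries that overlapped between each gene and its neighbour in that order, and NTRK3 (3.26) and NTRK2 (1.20) were lowest. In SCR the order below SORT1 was BDNF (27.3), NGFR (4.89), NTF4 (4.27), NTRK2 (1.52) and NTRK3 (0.412), so NTRK3 and NTRK2 stood in the opposite order to G2. The ranges of NGFR and NTF4 overlapped in SCR, and no other neighbours in that order did. In WT the order below SORT1 was BDNF (11.3), NGFR (3.99), NTF4 (1.38), NTRK2 (0.857) and NTRK3 (0.148), and among these neighbours the ranges of NTF4 and NTRK2 overlapped. The exon lengths include all annotated isoforms, and those of NTRK2 (33162 bases) and NTRK3 (26773 bases) are several times those of the other genes, so a level per expressed transcript may be understated for these 2.

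**Figure D3:**
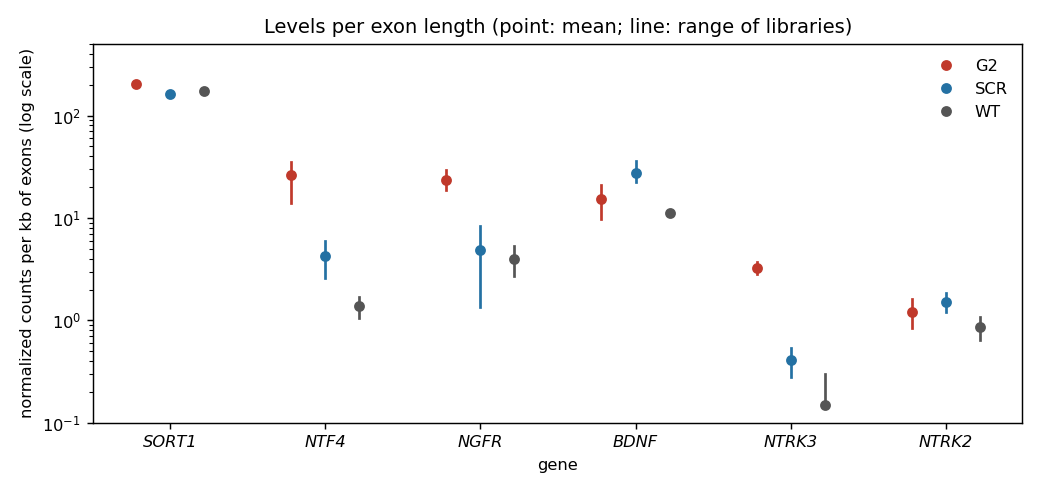
Normalized counts per kb of annotated exon (vertical log axis) for 6 genes in G2 (red), SCR (blue) and WT (grey); points are means and lines the range of the libraries. SORT1 lies between 161 and 202 in all lines, while NTRK2 lies near 1 and NTRK3 falls from 3.26 in G2 to 0.412 in SCR. The WT library of NTRK3 that is listed at 0 cannot be drawn on this axis.

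Adaptors next to the Trk receptors were mostly not DE. Of 28 listed genes 25 were tested, and 5 were higher and 2 lower in G2/SCR, 6 higher and 0 lower in G2/WT, and 3 higher in SCR/WT, with median log2 fold changes of 0.10, 0.18 and 0.17. The share DE was 28% against SCR and 24% against WT, near the 26.9% and 29.9% of all genes. SH2B3 (LNK), an adaptor that restrains receptor and cytokine signalling, had 3088 ± 86.1 normalized counts for G2 against 761 ± 20.4 for SCR (mean ± SD, n = 3 each), a 4.05-fold rise (limma, adjusted p = 2.1e-10). SHC4, a Shc adaptor, rose 3.96-fold in G2/SCR (limma, adjusted p = 1.7e-06) and 6.71-fold in G2/WT (limma, adjusted p = 2.7e-07). SHC4 was also 1.70-fold higher in SCR than in WT (limma, adjusted p = 0.01). The docking protein GAB1, the scaffold SQSTM1 (p62) and the adaptor SHC1 rose by 1.5- to 1.88-fold in G2/SCR and by 1.55- to 2.39-fold in G2/WT. The 2 lower genes in G2/SCR, named after their values were seen, were FRS3 and SH2B2, both Trk adaptors, with log2 fold changes of -0.67 and -0.86. Neither was DE in G2/WT (-0.06 and -0.35), and FRS3 was 1.53-fold higher in SCR than in WT (limma, adjusted p = 0.00029).

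The adaptors of p75NTR gave 1 higher and 2 lower of 16 in G2/SCR, 3 higher and 2 lower in G2/WT, and 0 in SCR/WT, with medians of 0.02, -0.06 and -0.10. Over all genes 26.9%, 29.9% and 16.3% were DE, so the share of this list was lower in G2/SCR (18.8%) and SCR/WT and near that of all genes in G2/WT (31.2%). RIPK2, a kinase that binds the death domain of p75NTR, had 1822 ± 94.6 normalized counts for G2, 610 ± 61.2 for SCR and 634 ± 2.32 for WT (mean ± SD, n = 3, 3 and 2). BEX1, which binds the receptor's intracellular part, fell by 1.08 on the log2 scale in G2/SCR and by 1.23 in G2/WT (limma, adjusted p = 7.5e-08 and 6.9e-08). NDN (necdin) was the other lower gene, named after its values were seen, at 0 to 16.1 normalized counts in G2, 16.0 to 30.2 in SCR and 37.7 to 100.6 in WT.

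Early genes and feedback regulators that neurotrophins are known to induce were largely higher in G2. Of 24 listed genes 22 were tested, with 14 higher and 2 lower in G2/SCR, 17 higher and 1 lower in G2/WT, and 9 higher and 2 lower in SCR/WT. The share DE was 72.7%, 81.8% and 50%, against 26.9%, 29.9% and 16.3% of all genes, and the median log2 fold changes were 0.90, 1.10 and 0.23 (1.08 in G2/WT with EGR2, EGR4 and IER3, at the floor in WT, set to their bounds). EGR1, an immediate early transcription factor, had 4743 ± 77.1 normalized counts for G2, 730 ± 36.5 for SCR and 493 ± 65.1 for WT (mean ± SD, n = 3, 3 and 2). EGR3 rose 11.6-fold in G2/SCR (95% interval 6.90 to 19.4, limma, adjusted p = 3.7e-06) and FOS 4.28-fold (3.26 to 5.62, limma, adjusted p = 1.3e-06). SPRY1, a feedback inhibitor of receptor tyrosine kinase signalling, rose 9.18-fold (8.31 to 10.1, limma, adjusted p = 1.2e-11). NPTX2, a secreted neuronal pentraxin, fell, with log2 fold changes of -2.31 and -3.14 (limma, adjusted p = 7.2e-10 and 1.6e-10). These genes respond to many growth factors, and the labels name no neurotrophin added to the cultures.

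**Figure D4:**
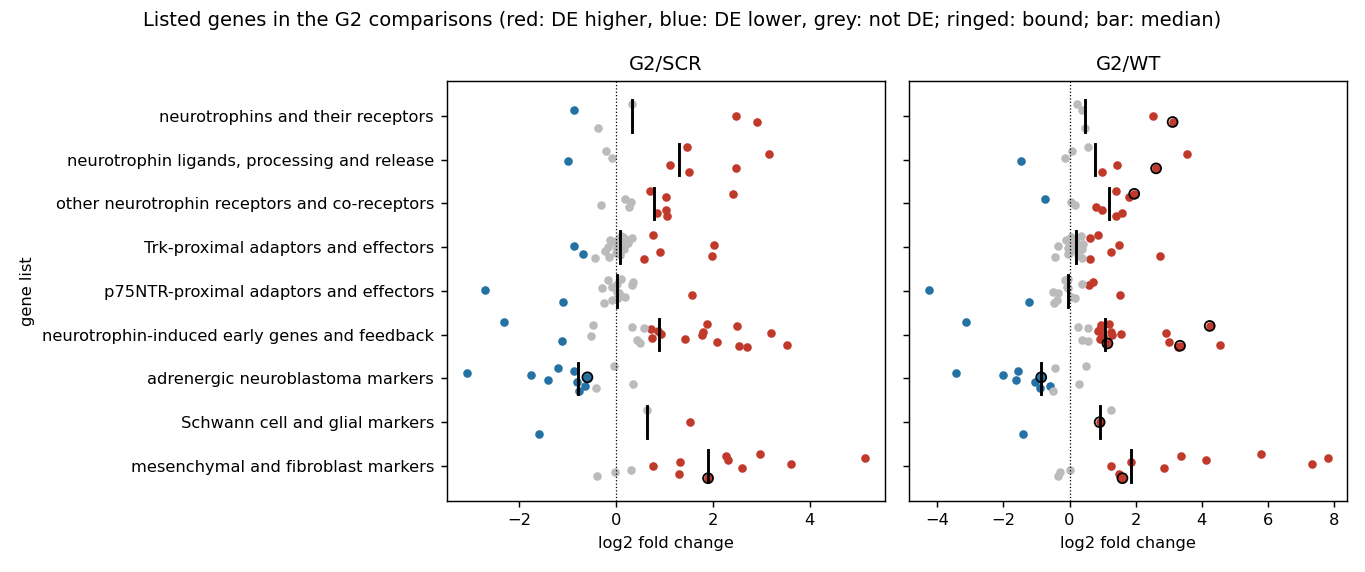
Log2 fold changes (horizontal axes) of the tested genes of each list in G2/SCR and G2/WT; each point is a gene, red for DE higher, blue for DE lower, grey for not DE, ringed where it is a bound against a line at the floor, and black bars are medians. The early gene list lies mostly to the right of 0 (median 0.90 in G2/SCR) and the adrenergic markers mostly to the left, while both adaptor lists centre near 0.

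Markers of the cell state differed between G2 and each control, as NTRK3 and NGFR did, and some also differed between SCR and WT. Of 12 adrenergic neuroblastoma markers, which define the noradrenergic neuroblast, 9 were DE lower in G2 than in SCR and 8 DE lower than in WT, with 0 DE higher (11.8% and 12.2% of all genes were lower). GATA3 went the other way, above all controls at 17343 to 19075 normalized counts in G2 against 13417 to 15178, but under the fold threshold. The summed level of the 12 was 280200 to 284232 normalized counts in G2, 394174 to 403810 in SCR and 362923 to 374361 in WT. STMN2 was the largest part in each line, with means of 165517 in G2, 170244 in SCR and 116782 in WT, and was not DE in either G2 comparison. All 12 were above the floor in SCR and WT, as the labelled cell type would have them, and in G2 TH, an enzyme of catecholamine synthesis, was at the floor. CHGA (chromogranin A) fell by 3.08 and DBH, which makes noradrenaline, by 1.74 on the log2 scale in G2/SCR (limma, adjusted p = 3.3e-11 and 9.6e-11). Of 15 mesenchymal and fibroblast markers 13 were tested, and 10 were DE higher and 0 DE lower against either control (over all genes 15.1% against SCR and 17.7% against WT were higher). Those not DE were TWIST1, PDGFRA and PDGFRB. TWIST1 lay below all controls, at 20674 to 21631 normalized counts in G2 against 25185 to 28525. PDGFRA and PDGFRB overlapped the controls. The sums over this list were 331152 to 333897 in G2, 120588 to 128397 in SCR and 86870 to 98111 in WT, and FN1 and TWIST2 were at the floor in all 3 lines. VIM made up most of these sums, with means of 214430 in G2, 85197 in SCR and 59181 in WT. The proteoglycan gene DCN was 35.4-fold higher in G2 than in SCR and the collagen gene COL3A1 12.2-fold (limma, adjusted p = 9.6e-13 for both). In SCR/WT 5 of the 13 tested mesenchymal markers were DE higher and 0 lower, against 10.7% and 5.63% of all genes. COL3A1 had means of 3348 in SCR and 253 in WT, and DCN of 1051 and 166. Of the 12 adrenergic markers 1 was DE higher and 1 lower in SCR/WT. Of 10 Schwann cell and glial markers, 6 were at the floor in G2, 5 in SCR and 8 in WT, and SOX10 was at 0 in every library. The sums were 172 to 270 in G2, 394 to 608 in SCR and 432 to 465 in WT. S100B, which made up most of the SCR and WT sums, fell by 1.58 on the log2 scale in G2/SCR (limma, adjusted p = 3e-05). The part of these markers in the NTRK3 and NGFR results was not tested, and in bulk RNA fewer cells of a type and less RNA per cell cannot be told apart.

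The genes whose profile over the 8 libraries was most like that of each member were found by Pearson correlation of log2(value + 1) with up to 12588 genes of mean at least 100. For NTRK3 they were STON1 (r = 0.997) and NLGN3 (r = 0.994), for NGFR TCN2 (0.962) and CDKN2D (0.959), and for SORT1 PTP4A2 (0.996) and QKI (0.994). For BDNF they were EFCAB6 (0.969) and USPL1 (0.954), and for NTRK2 PNMA8B (0.934) and TAF1L (0.931). The 8 points fall into 3 lines and share a size factor within each library, and the highest r among so many genes is high by selection, so these values describe likeness only.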

How the data were processed

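RNA-seq of polyadenylated RNA was deposited for 3 G2, 3 SCR and 2 WT libraries of SH-SY5Y cells, prepared with a stranded kit and sequenced as paired ends. For the deposited table, the authors aligned to hg38 using STAR, assigned reads to FAST DB genes using featureCounts (Subread 1.5.0 in the submitters' processing notes) and applied DESeq2 normalization. The deposited signal is a normalized count per gene and library, neither pooled nor scaled to length. Strand setting and handling of multimapping reads are not given in the sources used here.

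Each library's values were whole multiples of 1 step, between 0.756 and 1.24 normalized counts, and 100% of values came out whole within 0.05. The step of WT replicate 2 (0.993) is too near 1 for this check, and that of SCR replicate 1 (1.02) is near 1 as well. Count models were run only for G2/SCR. The floors and fragment counts of WT rest on its recovered counts all the same. Recovered totals were 59804395 to 81080747. Small counts (1 to 60) were multiples of 3 in 67.1% to 71.5% of cases, so 3 counts were read as 1 fragment and 9 counts as the floor. Poisson limits and floors cover counting error only, while the limma intervals rest on the spread between libraries.

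The design called for limma where the table held normalized values. limma 3.58.1 in R 4.3.3 was fitted to log2(value + 1) of 18947 genes, those averaging 10 or more across all 8 libraries (lmFit, eBayes with a trend, a mean per line). Fold changes of low genes depend on the added 1 and on taking means of log2 values, and can be smaller or larger than the ratio of the line means. The study's DE threshold was used, 1.5-fold or more with p of at most 0.05, with Benjamini-Hochberg adjusted p over all genes beside it. Nothing in the labels beyond "biological replicate" says how cultures were separated, so p-values measure the spread between these libraries. Alternatives were other pseudocounts, filters, thresholds and scalings, edgeR 4.0.16 and DESeq2 1.42.0 on recovered counts, and leaving out each library. On simulated data for G2/SCR (18947 genes), 90.2% of genes changed by 1 on the log2 scale and 99.4% of those changed by 2 were called. These rates pool genes of all levels, with a spread drawn from a trend on the mean. They are not rates for low genes such as NTRK2, NTRK3 and NGFR. Libraries with the same replicate number in the sample titles did not deviate together (correlations -0.03 to 0.04). The library names are numbered partly otherwise, and not all pairs by those names were checked.

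Members and lists were chosen with earlier results of these data known. All members, the other receptors and NTF4 were named, with up to 5 genes of each further list that were DE with the same sign against SCR and WT, had a mean of at least 100 and had the largest change in G2/SCR. Exon lengths and the NTRK2 sequences came from GENCODE 44 and hg38, promoters from RefSeq (5 of the 6 members matched). NRADD had no row under that symbol. A few listed genes enter the counts and medians of their lists but are not reported here by name.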

Additional observations from a re-analysis of the deposited data

How the results depend on the processing

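NTRK3 and NGFR kept their direction and their DE calls in G2/SCR and G2/WT under every alternative run that tested them; a mean of at least 100 leaves both untested, and the members DE were then 1, 0 and 1 in G2/SCR, G2/WT and SCR/WT. In SCR/WT the members DE numbered 1 at an adjusted p of at most 0.05 and ranged from 1 (without WT replicate 1) to 3 when single libraries were left out. A fold change of at least 2 left 2 Trk adaptors in G2/SCR, 5 receptors, 3 Trk adaptors and 3 p75NTR adaptors in G2/WT, and 1 ligand gene, 0 receptors, 0 Trk adaptors and 7 early genes in SCR/WT, and it took the call from PRPF40B in G2/SCR (-0.95). A mean of at least 100 left 3 ligand genes in G2/WT, and 1 ligand gene and 7 early genes in SCR/WT. Scaling to the same total moved the median of all genes to -0.10, 0.19 and 0.28 in G2/SCR, G2/WT and SCR/WT and the share higher among DE genes to 47.5%, 75.7% and 90.6% (main: 56.2%, 59.3% and 65.6%). In SCR/WT it gave 4 ligand genes, 8 receptors, 5 Trk adaptors and 2 p75NTR adaptors, and turned SORT1 to 0.17 and PRPF40B to 0.16. The ligand list in SCR/WT had 1 gene DE with a pseudocount of 5, at an adjusted p, with the 2 compared lines only or with a replicate block, and 1 to 3 when single libraries were left out; the p75NTR list had 1 with a pseudocount of 5, with the 2 lines only or with a replicate block, and 0 to 1 when single libraries were left out. NGFR in SCR/WT, near 0, was -0.20 with a replicate block and ran from -0.48 to 0.73 without single libraries, and PRPF40B ran from -0.23 to 0.0069. The replicate numbers of the sample titles, which the block used, do not pair the libraries by the check given with the processing, and the block moved no member's call. Causes were not tested. NTRK2, NTRK3 in SCR and WT, NGFR in the controls, and NTF4 and GFRA1 in SCR and WT rest on few fragments. This limits what these comparisons resolve.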
